A study of Mus musculus with 8 samples.

Results

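The MiT/TFE factors and the fusion genes linked to MITF were followed as 9 genes of peritoneal macrophages: Mitf, Tfeb, Tfe3, Tfec, Atp6v0d2, Gpnmb, Acp5, Dcstamp and Ocstamp. All 9 were found among the 47643 genes of the tables by their Ensembl identifiers, and all 9 were among the 12029 genes tested. The genes were selected by name with the difference between the groups of macrophages already known, so that their differences are described here without a test. MITF, TFEB, TFE3 and TFEC are basic helix-loop-helix leucine zipper proteins that bind DNA as dimers with themselves or with each other, at short E-box sequences. In many cells TFEB and TFE3 are held in the cytoplasm by mTORC1 on the lysosome, and after nutrient stress they enter the nucleus and activate genes of lysosomes and autophagy. MITF is best known from pigment cells, and MITF and TFE3 also drive genes of osteoclasts, bone-resorbing cells that form when precursors of the macrophage lineage fuse.

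The study asked how apoptotic cells change macrophages. The control group, MΦ+Dimerizer, held 4 libraries of peritoneal macrophages from C57 BL/6 mice, treated with 10 nM B/B Homodimerizer. The second group, MΦ+FV-Casp8+Dimerizer, held 4 libraries of macrophages from the same strain that shared wells with NIH 3T3 mouse fibroblasts, kept behind a membrane with 5 μm pores, and that received the same 10 nM dimerizer. The fibroblasts expressed FV-hCasp-8, a human caspase-8 with a dimerizer domain, so that the drug started apoptosis in them. By the paper's methods the co-culture ran overnight before the dimerizer was added. RNA was taken 48 h after the dimerizer, from 500000 seeded macrophages per well. The macrophages were the adherent cells of a peritoneal lavage, which by the paper's account came from individual animals, and the age of the mice is not given for this experiment. The fibroblasts were single clones, and the sources used here do not say which clone was used for sequencing. Living fibroblasts without apoptosis were not analysed here, so the presence of fibroblasts and their death cannot be told apart.

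QuantSeq reads 1 fragment at the 3′ end of each mRNA, and the values are normalized counts, reads divided by a size factor of the library. The libraries held 5904441 to 11506556 reads. All 10 macrophage markers were tested, but so were most markers of some other cell types. The summed level of the macrophage markers was 203646 to 211083 normalized counts in MΦ+Dimerizer and 228858 to 256649 in MΦ+FV-Casp8+Dimerizer. Lyz2, which encodes lysozyme and is the most abundant of them, had 163684 ± 4458 and 198256 ± 9686 normalized counts (SD, n = 4 in each group). It held most of the mean sums of 205830 and 243164. Markers of other cell types were also present, and the sums of some types differed between the groups. Of the 11 tested fibroblast markers of 14, 9 fell and 0 rose. The sum of the list was 20144 to 29440 normalized counts without and 10818 to 19157 with apoptotic cells. Of the mean sums, 26471 and 15198.5, Fn1 alone held 16866 and 11250. Of 7 dendritic cell markers 5 were tested, 3 fell and 1 rose, with sums of 2189.5 to 3262 and 854 to 1742. Itgax, which macrophages also express, held 2294 and 601 of the mean sums of 2782 and 1228. Of 10 mast cell markers 9 were tested and 2 fell, with overlapping sums of 667 to 3943 and 572 to 1570.4. All 3 tested mesothelial markers of 6 fell. Of the tested markers 2 of 7 rose for B cells, 2 of 3 fell for neutrophils, 1 of 2 fell for eosinophils and 0 of 2 were called for T and NK cells, while 3 macrophage markers rose and 2 fell. The 2 that fell were Gata6, with means of 350 without and 217 with apoptotic cells, and Mertk, with 2688 and 2256. The eosinophil markers Prg2 and Epx, the neutrophil marker Ly6g and the lymphocyte marker Gzma were at 0 in all 8 libraries. Other markers of these lists were detected. In MΦ+Dimerizer and MΦ+FV-Casp8+Dimerizer the neutrophil markers Mmp8 had means of 2745 and 813 and Csf3r of 318 and 143 normalized counts. S100a8, of the same list, had a higher mean in co-culture, with 276 and 332, and was not called. S100a9 had 2.75 and 7.72 and Retnlg 0.589 and 2.75. The eosinophil markers Siglecf had 42.3 and 7.21 and Ccr3 33.5 and 31.3. Cd2, of the T and NK cell list, had 22.5 and 42.6. In bulk RNA, fewer cells of a type and less RNA per cell cannot be told apart, and the part of other cell types in the values below was not tested.

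A gene is called here when limma, fitted over all 12029 genes on log2(normalized count + 1), gave a Benjamini-Hochberg adjusted p under 0.05. By this rule 28.7% of all tested genes were called, 13.7% lower and 15% higher with apoptotic cells. Of the 9 genes 7 were called lower, 1 was called higher and 1 was not called. In 14.1% of all tested genes the groups did not overlap and the co-culture was lower, and in 15.3% they did not overlap and it was higher. Among the 9 genes these numbers were 7 and 1. Tfe3 did not pass the rule without the filter on low values, nor with any library but MΦ+Dimerizer replicate 3 left out, and 7 of the 9 genes were then called. Since the genes were selected on this contrast, nothing is read from these counts. Their median log2 difference was -0.73, beside 0.01 for all tested genes.

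Mitf, at chr6:97807052-98021349 on the plus strand of GRCm38, was the most abundant of the 4 transcription factor genes in 3′ reads of the MΦ+Dimerizer libraries. It had 2732, 2720.2, 2691 and 2158 normalized counts in MΦ+Dimerizer replicates 1 to 4. With apoptotic cells it had 1479, 1001, 1289.9 and 1212. The lowest macrophage library without apoptotic cells, replicate 4, still lay above every library with them. The means were 2575 ± 279 and 1245 ± 198 (SD, n = 4 in each group), 2.07-fold lower with apoptotic cells, and the log2 difference was -1.05 with a standard error of 0.11. Mast cells also express Mitf. The summed mast cell markers had 1285, 667, 2107 and 3943 normalized counts in MΦ+Dimerizer replicates 1 to 4 and 1049.7, 572, 1196 and 1570.4 in the co-culture libraries. Mitf and the mast cell sum were both lowest in replicate 2 of the co-culture, and in MΦ+Dimerizer replicate 4 the sum was highest and Mitf lowest. The part of mast cells in the Mitf reads was not tested. RefSeq lists 3 start windows for Mitf, and its isoforms, which differ at the 5′ end, are not told apart by 3′ reads.

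Tfeb, at chr17:47737030-47792419 on the plus strand, encodes the factor most closely tied to lysosome formation. It had 311, 284, 295 and 304 normalized counts in MΦ+Dimerizer replicates 1 to 4. The 4 libraries with apoptotic cells had 129, 131, 130.2 and 109. The libraries lay close together within each group and far apart between groups. The means were 298 ± 11.5 and 125 ± 10.3 (SD, n = 4 in each group), 2.39-fold lower with apoptotic cells, and the log2 difference was -1.26 with a standard error of 0.10. Of the 4 factors it had the lowest log2 difference.

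Tfe3, at X:7762560-7775202 on the plus strand, encodes a factor that overlaps with TFEB in its lysosomal targets and with MITF in osteoclasts. Its normalized counts were 1129.5, 1147, 1081 and 1148 in MΦ+Dimerizer and 964, 985, 996 and 1024 in MΦ+FV-Casp8+Dimerizer, in the order of replicates 1 to 4. The groups did not overlap, but the gap was narrow. The means of 1126 ± 31.5 and 992 ± 25.3 (SD, n = 4 in each group) gave a log2 difference of -0.18 with a standard error of 0.06. With 1 library left out it was -0.20 to -0.17.

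Tfec, at chr6:16833373-16898441 on the minus strand, was the only member with a higher mean in co-culture. TFEC is the member of the family that is most restricted to macrophages. Its normalized counts were 143, 102, 174 and 199 in MΦ+Dimerizer replicates 1 to 4. They were 299.8, 233, 245 and 227 with apoptotic cells. The lowest co-culture library lay above the highest library of the other group. The means were 155 ± 42.1 and 251 ± 33.4 (SD, n = 4 in each group), 1.62-fold higher with apoptotic cells, and the log2 difference was 0.73 with a standard error of 0.18.

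**Figure D1:**
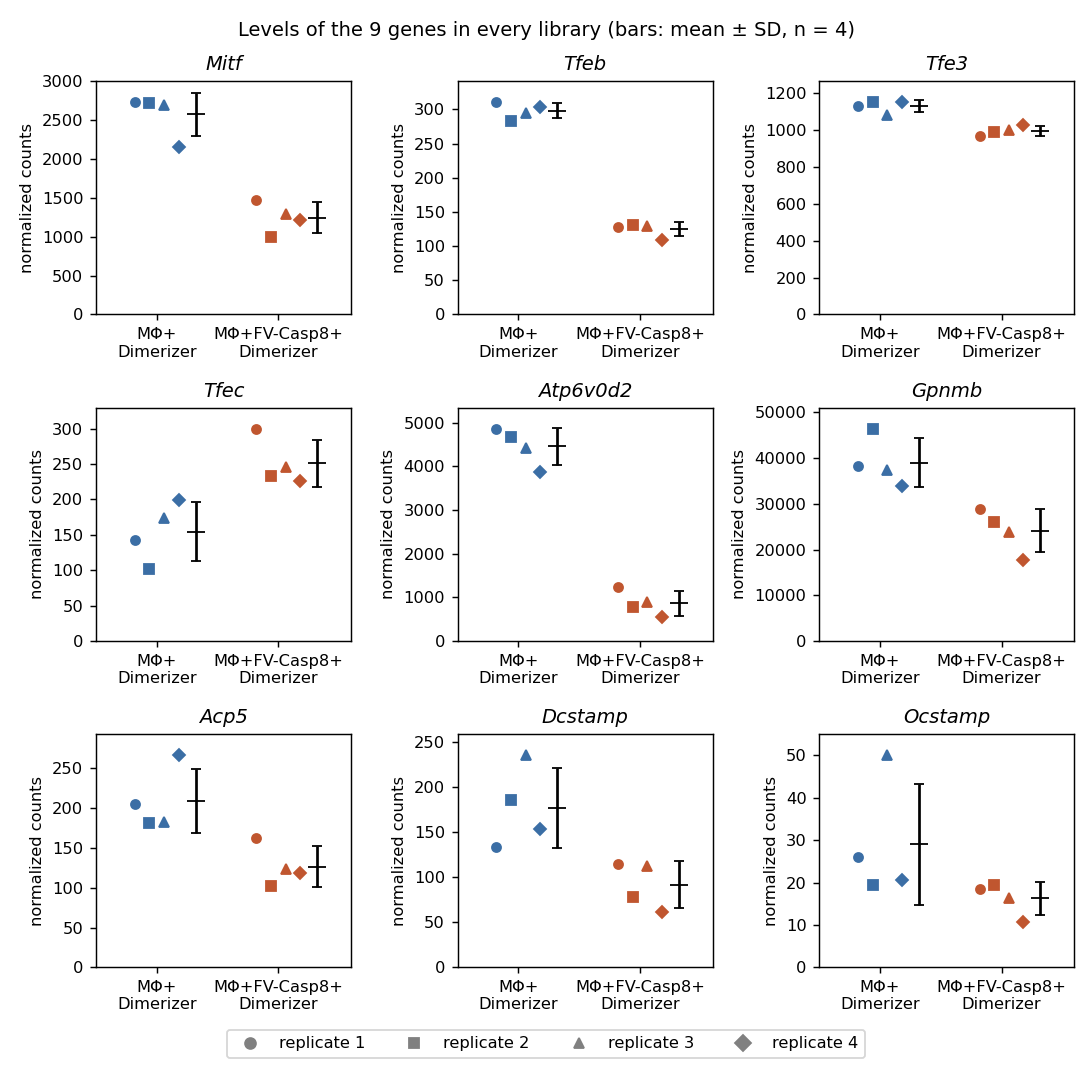
Normalized counts (vertical axes, from 0) of the 9 genes in the 4 MΦ+Dimerizer libraries (blue) and the 4 MΦ+FV-Casp8+Dimerizer libraries (red), with symbols for the replicate number and black bars for the mean and SD. The groups are apart in every panel but that of Ocstamp, and Tfec is the only panel in which the co-culture is higher.

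Together the 4 factors had 4154 ± 232 normalized counts without and 2613 ± 216 with apoptotic cells (SD, n = 4 in each group), and the sums did not overlap. The make-up of the family differed as well. Mitf held 61.8% ± 3.47 of the sum without and 47.4% ± 3.70 with apoptotic cells. Tfe3 held 27.2% ± 2.05 and 38.2% ± 3.58. Tfe3 thus took a larger share of a smaller sum than without apoptotic cells, although its own level was lower, and Mitf still held the largest share. Tfeb held 7.20% ± 0.557 without and 4.80% ± 0.577 with apoptotic cells. Tfec held 3.76% ± 1.21 and 9.59% ± 0.725, so that in co-culture its 3′ reads outnumbered those of Tfeb in all 4 libraries and in MΦ+Dimerizer in none. The ratio of Mitf to Tfe3 was 1.88 to 2.49 in the MΦ+Dimerizer libraries and 1.02 to 1.54 in the others. Each mRNA gives 1 fragment at its 3′ end, so that these shares need no correction for transcript length, but 3′ ends can be captured unequally between genes.

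**Figure D2:**
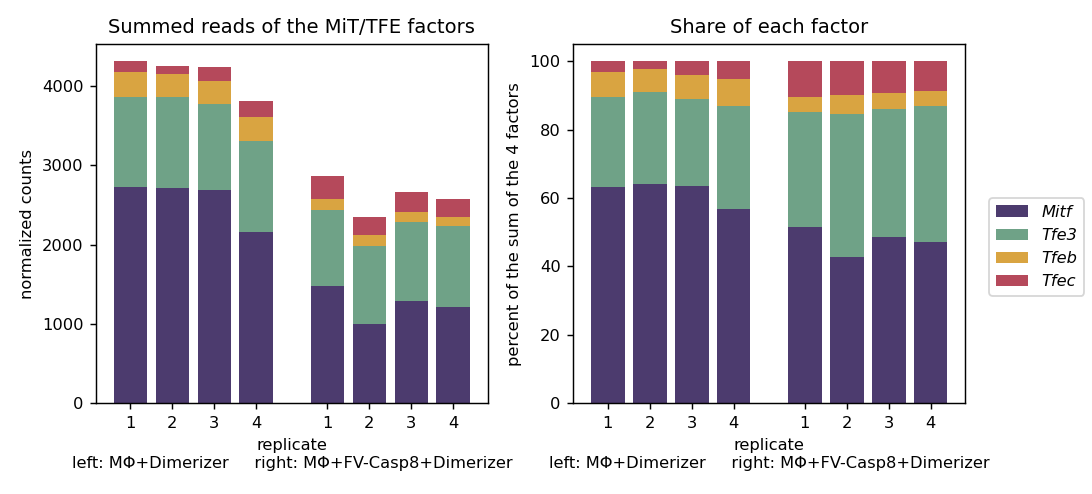
Stacked normalized counts (left) and percent shares (right) of Mitf, Tfe3, Tfeb and Tfec in each of the 8 libraries. The sum of the 4 genes is 3809 to 4315 in MΦ+Dimerizer and 2349 to 2871 in MΦ+FV-Casp8+Dimerizer, and the Mitf share is smaller and the Tfec share larger in every co-culture library.

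The activity of TFEB and TFE3 is set in large part by where their proteins are, which RNA counts do not show. Of 24 genes that act on this step, 23 were tested, 5 fell, 2 rose and 16 were not called, with a median log2 difference of -0.0038. The share called was near the 28.7% of all tested genes. Tsc2 and Tsc1, the partners of the complex that restrains mTORC1, fell by 0.63 and 0.50 on the log2 scale (limma adjusted p = 0.000857 and 0.00289). Rragc and Rraga encode Rag GTPases that bring mTORC1 and the factors to the lysosome. They rose by 0.27 and 0.39 (limma adjusted p = 0.00853 and 0.00948). Fnip2, Rptor and Lamtor4, also of this list, fell by 0.45, 0.40 and 0.29 (limma adjusted p = 0.00323, 0.0412 and 0.00767). Rragd, itself a target of MiT/TFE factors, had 229 ± 29.0 and 206 ± 23.8 normalized counts (SD, n = 4 in each group) and was not called. Flcn, the folliculin partner of the Rag GTPases, had 577 ± 56.1 and 587 ± 55.3 and was not called either.

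Atp6v0d2 had the lowest log2 difference of the 9 genes. It lies at chr4:19876841-19922605 on the minus strand and encodes the d2 subunit of the membrane part of the vacuolar proton pump, which acidifies lysosomes, and mouse cells need it for efficient fusion of osteoclast precursors. Its normalized counts were 4864, 4685, 4429 and 3884 in MΦ+Dimerizer replicates 1 to 4. With apoptotic cells they were 1231, 767, 903 and 551. Replicate 4 was the lowest library of each group, and the groups were far apart. The means of 4465 ± 427 and 863 ± 285 (SD, n = 4 in each group) differed 5.17-fold, with a log2 difference of -2.42 and a standard error of 0.18. Among all 12029 tested genes it ranked 26th from the lowest log2 difference.

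Atp6v0d1 encodes d1, the widely expressed form of the same subunit, and was not called. Its normalized counts were 1303, 1295, 1058 and 1234 without and 1440.2, 1648, 1179 and 1238 with apoptotic cells. The groups overlapped, and the log2 difference was 0.16 with a standard error of 0.11 (limma adjusted p = 0.281). The ratio of Atp6v0d2 to Atp6v0d1 was therefore 3.67 ± 0.427 in MΦ+Dimerizer and 0.633 ± 0.208 in MΦ+FV-Casp8+Dimerizer (SD, n = 4 in each group). In each MΦ+Dimerizer library d2 had more 3′ reads than d1, and in each co-culture library fewer.

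The other genes of the pump were taken as a list. Of 18 subunit and accessory genes besides Atp6v0d2, 17 were tested, 3 fell, 2 rose and 12 were not called, and their median log2 difference was 0.04. The share called was near the 28.7% of all tested genes. Tcirg1, the a3 subunit of the membrane part that osteoclasts use at the resorbing surface, fell by 0.77 on the log2 scale with a standard error of 0.07 (limma adjusted p = 8.77e-06). Atp6v0a1, another a subunit, fell by 0.62 (limma adjusted p = 0.00075), and Atp6v1b2, a subunit of the part that splits ATP, fell by 0.56 (limma adjusted p = 0.0031). Atp6v1d and Atp6v1g1, subunits of the stalk, rose by 0.29 and 0.28 (limma adjusted p = 0.0108 and 0.0402). All 5 of these differences were smaller in size than that of Atp6v0d2. With quantile normalization 6 genes of the list were called lower and 1 higher. The higher count also dropped to 1 in several other settings, in which Atp6v1g1 lost its call, among them without MΦ+Dimerizer replicate 1 or 3 and without MΦ+FV-Casp8+Dimerizer replicate 1, 2 or 4.

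**Figure D3:**
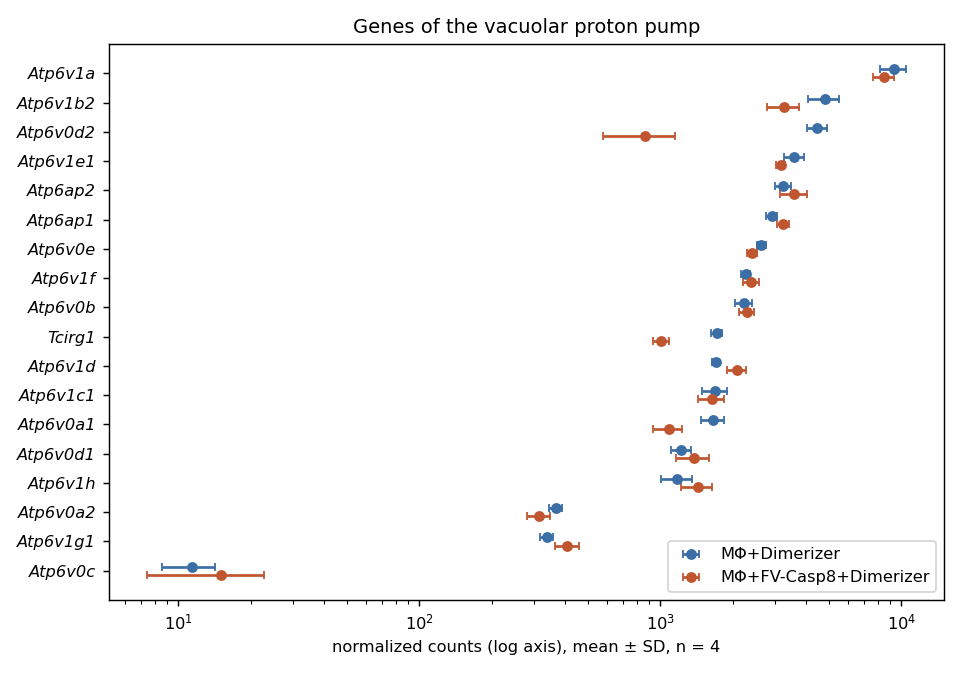
Mean and SD of the normalized counts (horizontal log axis, n = 4 in each group) of Atp6v0d2 and of the 17 other tested genes of the vacuolar proton pump, ordered by their level in MΦ+Dimerizer (blue), with MΦ+FV-Casp8+Dimerizer in red. Atp6v0d2 is at 4465 without and 863 with apoptotic cells, whereas the pairs of most other genes lie side by side.

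Gpnmb, at chr6:49036546-49070929 on the plus strand, was the most abundant of the 9 genes and the 17th of all tested genes by mean level. It encodes a membrane glycoprotein of lysosomes and the cell surface that MITF controls in pigment cells and osteoclasts. Its normalized counts were 38274, 46413, 37421 and 33960.2 in MΦ+Dimerizer replicates 1 to 4. With apoptotic cells they were 28755, 26114, 23757 and 17768. Here too replicate 4 was the lowest of each group, and the groups did not overlap. The means were 39017 ± 5272 and 24099 ± 4688 (SD, n = 4 in each group), 1.62-fold lower, with a log2 difference of -0.71 and a standard error of 0.15. With quantile normalization the difference was smaller, at -0.42.

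Acp5, at chr9:22126727-22135711 on the minus strand, encodes tartrate-resistant acid phosphatase, the enzyme stained to identify osteoclasts. It had 205, 182, 182 and 266 normalized counts in MΦ+Dimerizer replicates 1 to 4. The co-culture libraries had 162, 102, 124 and 118. The highest co-culture library, replicate 1, still lay below every library of the other group. The means of 209 ± 39.8 and 127 ± 25.3 (SD, n = 4 in each group) differed 1.65-fold, with a log2 difference of -0.72 and a standard error of 0.16.

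Dcstamp, at chr15:39745930-39760938 on the plus strand, encodes a membrane protein with several spans that osteoclasts and giant cells of the mouse need to fuse. It had 133, 186, 235 and 153 normalized counts without and 115, 78.1, 113 and 61.4 with apoptotic cells. The groups did not overlap, although the highest co-culture libraries lay close to MΦ+Dimerizer replicate 1. The means of 177 ± 44.5 and 91.8 ± 26.4 (SD, n = 4 in each group) gave a log2 difference of -0.95 with a standard error of 0.21. Its protein was first described in dendritic cells, and of the 5 tested dendritic cell markers Itgax and Zbtb46 fell by 1.96 and 0.99 on the log2 scale (limma adjusted p = 1.23e-05 and 0.00957). Clec9a fell by 3.40 (limma adjusted p = 5.02e-05). Ccr7 rose by 1.44 (limma adjusted p = 0.0215), but was no longer called when co-culture replicate 3 or 4 was left out, and Cd209a had a log2 difference of 0.44 and was not called. Itgax, which macrophages also express, had 2294 ± 497 and 601 ± 181 normalized counts (SD, n = 4 in each group).

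Ocstamp, at chr2:165393760-165400405 on the minus strand, encodes a related protein of osteoclast fusion and was the rarest of the 9 genes, with 15 to 54 reads per library. Its normalized counts were 26.1, 19.3, 50.0 and 20.6 without and 18.4, 19.5, 16.3 and 10.8 with apoptotic cells. The groups overlapped, and MΦ+Dimerizer replicate 3 stood above the rest. The means were 29.0 ± 14.3 and 16.2 ± 3.88 (SD, n = 4 in each group). The log2 difference of -0.73 had a 95% interval of -1.41 to -0.04 before adjustment, and it was -0.44 without MΦ+Dimerizer replicate 3. Dcstamp had 4.70 to 9.60 times as many 3′ reads as Ocstamp in MΦ+Dimerizer and 4.00 to 6.94 times as many in co-culture, so that the ratios overlapped.

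Promoter windows were examined for the E-box of lysosomal genes, CACGTG, which is the core of the CLEAR element bound by TFEB, and for the M-box of pigment genes, TCATGTG, bound by MITF, on both strands. RefSeq windows of 300 bases (GRCm38.p6, 250 bases before to 50 after a start) were at hand for 6 of the 9 genes, in 13 windows, and not for Atp6v0d2, Dcstamp and Ocstamp. CACGTG was in 0 of the 13 windows and TCATGTG in 1, compared with 7.15% and 3.77% of all 32851 windows. Neither motif contains the other, and a match describes letters and not a bound site. The match lay in 1 of 3 windows of Acp5, chr9:22130549-22130848 on the minus strand, and the window is shown because it is the only one of the 13 with a match. It reads against the gene, so that the capitals below mark its reverse complement, 90 bases before the start.
Acp5: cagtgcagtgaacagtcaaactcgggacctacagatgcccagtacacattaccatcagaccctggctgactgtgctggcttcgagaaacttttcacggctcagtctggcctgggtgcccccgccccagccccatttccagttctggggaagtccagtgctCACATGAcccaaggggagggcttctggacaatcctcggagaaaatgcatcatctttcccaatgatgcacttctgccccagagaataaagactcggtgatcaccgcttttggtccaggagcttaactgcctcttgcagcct

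For comparison, TCATGTG was in the windows of 6 of 7 pigment cell genes known as MITF targets. Such genes are known for this element, so that nothing is read from the share. Of these, 4 are shown because pigment genes are the best known setting of this element. The capitals mark the motif, with 9 bases on each side, and the sequences read in the direction of the motif. The last line is the Acp5 match in that direction.
Tyr: aaaagttagTCATGTGctttgcaga
Tyrp1: gggagggagTCATGTGctgcctagt
Dct: cacttagggTCATGTGctaacaaag
Mc1r: acatgcccaTCATGTGgccaccctc
Acp5: ccccttgggTCATGTGagcactgga

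The pigment genes were at or near 0 in these cells. None of the 10 genes of this list reached the filter on low values, 6 of them were at 0 in all 8 libraries, and their summed level was 2.75 to 6.45 normalized counts without and 2.3 to 14.3 with apoptotic cells. The enzymes Tyr, Tyrp1 and Dct, which make melanin, were among the 6. The Mitf reads of 1001 to 2732 normalized counts thus stood beside no reads of these 6 targets and few of the rest of the list. A count of 0 limits only what this depth can show.

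CACGTG was found in the windows of 4 of 13 pump genes and 11 of 25 lysosome and autophagy genes of the CLEAR network, compared with 8.09% of all 27025 genes. The network is named for the element that holds this motif, so that nothing is read from its higher share. The pump matches are shown because Atp6v0d1, which was not called, is among them. Capitals mark the motif, which reads the same on both strands, with 9 bases on each side in the direction of the gene.
Atp6v0d1: tactgcggtCACGTGagacgcggt
Atp6v0b, first match: cgcgggggtCACGTGgggtcggcg
Atp6v0b, second match: tcggcgcatCACGTGcgccggtca
Atp6v1a: tttttaaatCACGTGataggctta
Atp6v0e: cgcgccgatCACGTGagcctctgt

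None of these 4 pump genes was called. The match of Atp6v0d1 begins 3 bases before its start, and those of Atp6v0b begin 36 and 18 bases before it. Of the 32 CLEAR network genes, all tested, 10 fell, 6 rose and 16 were not called, with a median log2 difference of -0.09. Gabarapl1, which encodes an autophagosome protein, fell by 0.95 on the log2 scale (limma adjusted p = 5.53e-06), and Psap, the precursor of the saposins that help to break down sphingolipids, fell by 0.79 (limma adjusted p = 5.49e-05). Sgsh, a lysosomal sulfatase, and Wipi1, an early autophagy protein, rose by 0.50 and 0.49 (limma adjusted p = 0.00217 and 0.00265).

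Genes of osteoclast differentiation and resorption other than the 9 moved in both directions. Of 22 genes 19 were tested, 7 fell, 2 rose and 10 were not called, with a median log2 difference of -0.20. Prdm1, the repressor Blimp-1 that permits osteoclast formation, fell by 1.53 on the log2 scale with a standard error of 0.16 (limma adjusted p = 1.21e-05). Ctsk, the collagen-degrading cathepsin K and a target of MITF in osteoclasts, was low and fell by 0.83 (limma adjusted p = 0.0099). Nfatc1, the master regulator of osteoclasts, had 495 ± 46.5 and 479.6 ± 93.6 normalized counts (SD, n = 4 in each group) and was not called. Fos and Tnfrsf11a, the latter encoding the receptor RANK, rose by 0.48 and 0.30 (limma adjusted p = 0.00348 and 0.0118). Calcr, the calcitonin receptor of mature osteoclasts, was at 0 in all 8 libraries.

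Other genes linked to macrophage fusion were likewise divided. Of 20 genes 19 were tested, 6 fell, 5 rose and 8 were not called, with a median log2 difference of 0.04. The chemokine gene Ccl2 and the mannose receptor gene Mrc1 rose by 2.19 and 2.09 on the log2 scale (limma adjusted p = 1.65e-06 and 1.94e-06). The lipid receptor gene Trem2 fell by 0.69 and Myo10, a myosin of filopodia, by 1.00 (limma adjusted p = 0.000133 and 2.53e-05). Gpnmb is also known as a marker of lipid-associated macrophages. Of 14 other genes of that state, all tested, 9 fell, 2 rose and 3 were not called, with a median log2 difference of -0.56. Lpl, which encodes lipoprotein lipase, fell by 1.70 and Lgals3, galectin-3, by 1.21 (limma adjusted p = 2.42e-05 and 1.53e-05). Spp1 and Ctsl, for osteopontin and cathepsin L, rose by 0.90 and 0.38 (limma adjusted p = 0.02 and 0.0451), but both lost the call without MΦ+Dimerizer replicate 1 or replicate 4, when 0 genes of the list were called higher.

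**Figure D4:**
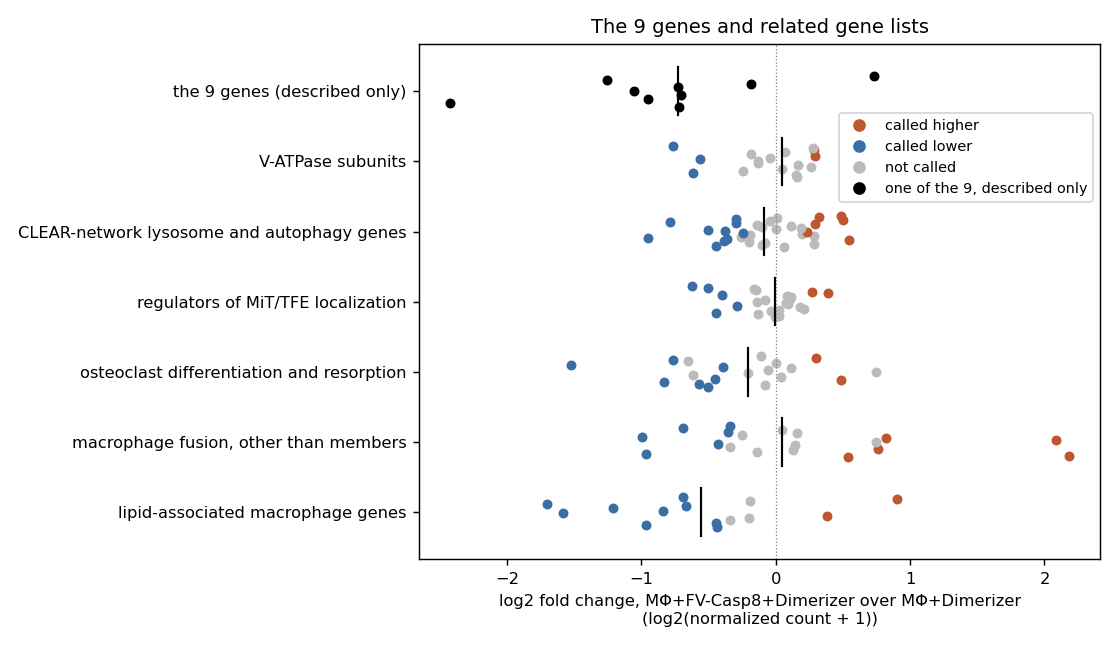
Log2 differences (horizontal axis, MΦ+FV-Casp8+Dimerizer over MΦ+Dimerizer) of the 9 genes in black, shown as a description only, and of the tested genes of 6 related lists, each gene 1 point, red where called higher, blue where called lower and grey where not called. Short vertical lines mark the medians, -0.73 for the 9 genes and -0.56 to 0.04 for the lists, and Atp6v0d2 is the lowest point of all at -2.42.

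The profiles of the 9 genes over the 8 libraries were compared as centred log2 values, by their Euclidean distance. Mitf and Tfeb were the closest pair, with a distance of 0.63, and Tfec and Atp6v0d2 the farthest, with 4.59. Gpnmb and Dcstamp were the next closest to Mitf, at 0.81 and 0.86. Among all tested genes the profile nearest to Mitf was that of Wfs1, at 0.21, and the second was Myo10, also at 0.21. Abcg1 and Pianp were nearest to Atp6v0d2, at 0.66 and 0.67. For Tfeb the nearest were Plxna1 and Evl, at 0.27 and 0.31, and for Tfec Lpcat2 and Fcgr2b, at 0.33 and 0.40. Ttc17 and Cdc42se2 were nearest to Tfe3, at 0.09 and 0.11, and Inf2 and Alas1 to Gpnmb, at 0.27 and 0.29. The nearest to Acp5 were Brpf3 and P2ry14, at 0.33 and 0.38, to Dcstamp Kitl and Pcdh7, both at 0.51, and to Ocstamp Mcrs1 and Gpr162, at 0.77 and 0.78. The distances describe these 8 libraries, whose profiles share the difference between the groups. When each profile was also divided by its SD, 1 of the 2 nearest genes stayed for Mitf and 1 for Tfeb, and 0 for each of the other 7 genes.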

How the data were processed

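RNA of mouse peritoneal macrophages was sequenced by QuantSeq 3′ mRNA sequencing with unique molecular identifiers, 4 libraries per group, grouped by the sample labels. According to the paper the authors processed reads with 2.3.1 of Lexogen's QuantSeq FWD UMI pipeline and 1.3.1 of its DE pipeline on GRCm38, and STAR, HTSeq and DESeq2 are named in the submitters' processing notes. The sources used here do not name the annotation release. The files deposited by the authors hold normalized counts, that is, a signal made of whole reads over a size factor. Multiplied back, 100% of values were whole numbers to within 0.001 reads in every library, and the factors equalled median-of-ratios factors, so that a global change of RNA per cell cannot be seen. Of the gene identifiers 99.1% matched GENCODE M21. Read counts of libraries within a group differed by 4.32 to 15.86 times the sampling noise, so that none was a duplicate.

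Fold changes were fitted with limma 3.58.1, run in R 4.3.3, from log2(normalized count + 1) values and a variance trend, over 12029 genes, those whose mean was 10 or more. Adjustment was by the Benjamini-Hochberg method at 0.05, with 1806 genes called higher and 1646 lower. On the recovered reads edgeR 4.0.16 (quasi-likelihood, TMM) called 1741 higher and 1746 lower. The limma p-values set the difference between the groups against the spread between libraries within them.

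The 9 genes, the gene lists and the tests were chosen with earlier results of these data known. Genes followed by name are the 9, Atp6v0d1, Tcirg1, Nfatc1, Ctsk, Rragd and Flcn, from each list the 2 called genes of smallest adjusted p in each direction, from each marker list the most abundant and the called markers, and the 2 genes nearest to each of the 9. Cell markers are given mainly as counts and sums. Other names (Atp6v1b2, Calcr, Cd209a, Fnip2, Rptor, Lamtor4, S100a8, S100a9, Retnlg, the pigment and CACGTG genes, markers at 0) were chosen after their values were seen. Gene lists were compared by counts, without a set test. Alternatives were a pseudocount of 0.5 or 5, the filter left out or set at a mean above 30, upper-quartile scaling, quantile normalization, edgeR, DESeq2 1.42.0, a replicate block, each library left out, scaled profiles, and motifs on the gene's strand only. Protein sequences were not analysed here. Tables and figures were made in Python 3.11.15 (pandas 2.3.3, numpy 2.4.6, matplotlib 3.10.9).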

Additional observations from a re-analysis of the deposited data

Results flagged for a closer look

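Among the 9 genes, 2 of 18 groups of 4 libraries held a library far from the other 3. Mitf in MΦ+Dimerizer replicate 4 had 2158 normalized counts, below the nearest library at 2691, and Tfeb in MΦ+FV-Casp8+Dimerizer replicate 4 had 109, below the nearest at 129. In both cases the library stayed on its own group's side of the difference.

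Outside the 9 genes, 5 further values stood apart in the same way. Wipi1 was high in MΦ+Dimerizer replicate 2 with 437 normalized counts, Mrc1 in replicate 3 with 2170.3 and Spp1 in replicate 2 with 3013. Col1a1, a fibroblast marker, was low in MΦ+FV-Casp8+Dimerizer replicate 3 with 563, and Col6a1 was low in MΦ+Dimerizer replicate 3 with 104. In all, 7 of 140 groups were marked, and chance marks about 1 in 20.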

How the results depend on the processing

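Each of the 9 genes kept its direction under all alternatives run, 17 for each gene and 16 for Ocstamp, which a mean above 30 dropped, and only Gpnmb under quantile normalization, at -0.42, moved by more than the spread between libraries. Of the 9 genes 8 passed the call rule here and 7 under 8 alternatives, all without Tfe3, which is a description, since the genes were selected on this contrast. Of 1030 values of 61 other named genes 983 kept their call, 41 lost and 6 gained it, and 0 reversed. Pump genes called higher, 2 here, were 1 with no filter, upper-quartile scaling, quantile normalization or DESeq2, and 1 to 2 with a library left out. Pump genes called lower, 3 here, were 5 with upper-quartile scaling, 6 with quantile normalization and 3 to 4 with a library left out. Lipid-associated genes called higher, 2 here, were 1 with no filter or upper-quartile scaling and 0 to 2 with a library left out. The cause was not tested. With the motif read on the gene's strand only, 0 of the 13 windows held TCATGTG.

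The replicate numbers were not used as pairs in the main fit, since no source says that a number marks 1 animal. The correlation of deviations was 0.088, 0.341, 0.293 and 0.194 for same-numbered libraries, and each library correlated best with its own number. Column headers of same-numbered libraries also begin with the same number. The groups may therefore be paired, which the sources do not settle. With a replicate block 2293 genes were called higher and 2118 lower, in the pump list 4 higher and 5 lower, and in the CLEAR list 10 higher. Depth limits mainly Ocstamp, with 15 to 54 reads per library.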
